A study of Caenorhabditis elegans with 2 samples.

Results

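The genes described here are 33 genes of the nematode Caenorhabditis elegans whose transcripts were moderately targeted by antisense small RNAs bound to NRDE-3 in wild-type embryos, and much less in the second library of the study. They were chosen from 20535 genes listed as protein-coding, of 45510 genes in all. A member had from 10 to below 50 antisense RPM (reads per 1000000 counted reads) in the wild-type library and at least 4 times its RPM in the RNAi library. Antisense reads of all coding transcripts of a gene were added up. Genes whose names start with fbx, math, bath, btb, his or col, and 10 listed genes, were not taken. The sets of 61 and 21 genes compared below leave out the same names, while values over all coding genes include them. Another 13 genes met both limits and were left out for this reason, of which 12 were fbxa F-box genes, including the pseudogene C29F9.11 that RefSeq names fbxa-58, and the other was C36A4.11. Both the level and the ratio of the members were therefore fixed by the choice, and they are given as a description, with no test.

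Small RNAs were recovered from embryos with anti-FLAG beads and sequenced in 2 libraries, 1 per group, so no replicate exists and no p-value is given. For the wild type, the animals were N2 with the genotype 3xflag::gfp::nrde-3 and were fed OP50 bacteria. For the library called RNAi below, they were eri-1(mg366);dpy-13(e458);3xflag::gfp::nrde-3 animals fed bacteria for dpy-13 RNAi, which the study used as a control. All animals were kept at 20 °C and both groups carried the tagged nrde-3, whose promoter the labels do not name. Genotype, food and library preparation differ together between the groups and cannot be told apart, nor can fewer cells carrying a small RNA and fewer molecules per cell. The purpose of the study was to learn what nuclear RNA interference does in undisturbed animals and whether off-target genes are silenced.

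NRDE-3 is an Argonaute of somatic cells. It binds secondary small RNAs in the cytoplasm, made by RNA-dependent RNA polymerases on a target transcript and therefore antisense to it, moves to the nucleus, and silences nascent transcripts there with other NRDE proteins. In worms without foreign double-stranded RNA it is known to be loaded through the ERI pathway, in which Dicer with its partners and the Argonaute ERGO-1 start the response. Recent gene duplicates, pseudogenes and noncoding RNAs are known targets of this endogenous pathway. The exonuclease ERI-1, whose gene is mutated in the RNAi library's strain, belongs to it.

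Counted reads numbered 7693320 in the wild type and 5537671 after RNAi, so 1 read was a larger level in the latter. A count of 0 allowed up to 3 reads, or 0.390 RPM in the wild-type library and 0.542 RPM in the RNAi library. The targeted gene dpy-13 had 1 and 115 antisense reads. All 8 microRNAs of the embryonic mir-35 family were detected, with 331 and 2270 sense RPM in sum, while 4 matched larval microRNAs summed to 0.390 and 0.542 RPM. The part of that difference between the libraries in the values below was not tested. The median log2 ratio of RNAi over wild-type RPM was 3.64 over the 5019 protein-coding genes with 10 or more antisense reads, so the median coding gene was higher in the RNAi library on this scale. The size of that median depends on the scaling, since it was 0.44 under TMM (edgeR) and 0.43 under median of ratios (DESeq2), both computed on antisense reads outside structural RNA and both made to bring the typical gene near equality.

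Against this background the 33 genes stood on the other side of equality. They had 6086 antisense reads in the wild type (791 RPM) and 211 after RNAi (38.1 RPM). The sum was 20.8-fold lower in the RNAi library (exact 95% interval 18.1 to 23.9, counting error only). They held 0.457% of the wild-type antisense reads outside structural RNA and 0.0495% of those in the RNAi library. Per gene the wild-type count ran from 77 to 374 reads with a median of 150, and the RNAi count from 0 to 51 with a median of 1. The median log2 ratio of the members was −6.22 with 0.5 added to each count, and −4.76, or 27.1-fold lower, with genes at 0 set to the limit of 3 reads. All 33 had an interval wholly beyond 2-fold. Of the 5019 measured coding genes, 124 (2.47%) had 10 or more wild-type RPM and this ratio, and since the ratio chose the members nothing is read from their count. The plot of levels in each library gives every gene by its gene or sequence name, and the genes called WBGene00219443 and WBGene00185102 here appear there under their sequence names in clones Y57G11C and Y105C5A.

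**Figure D1:**
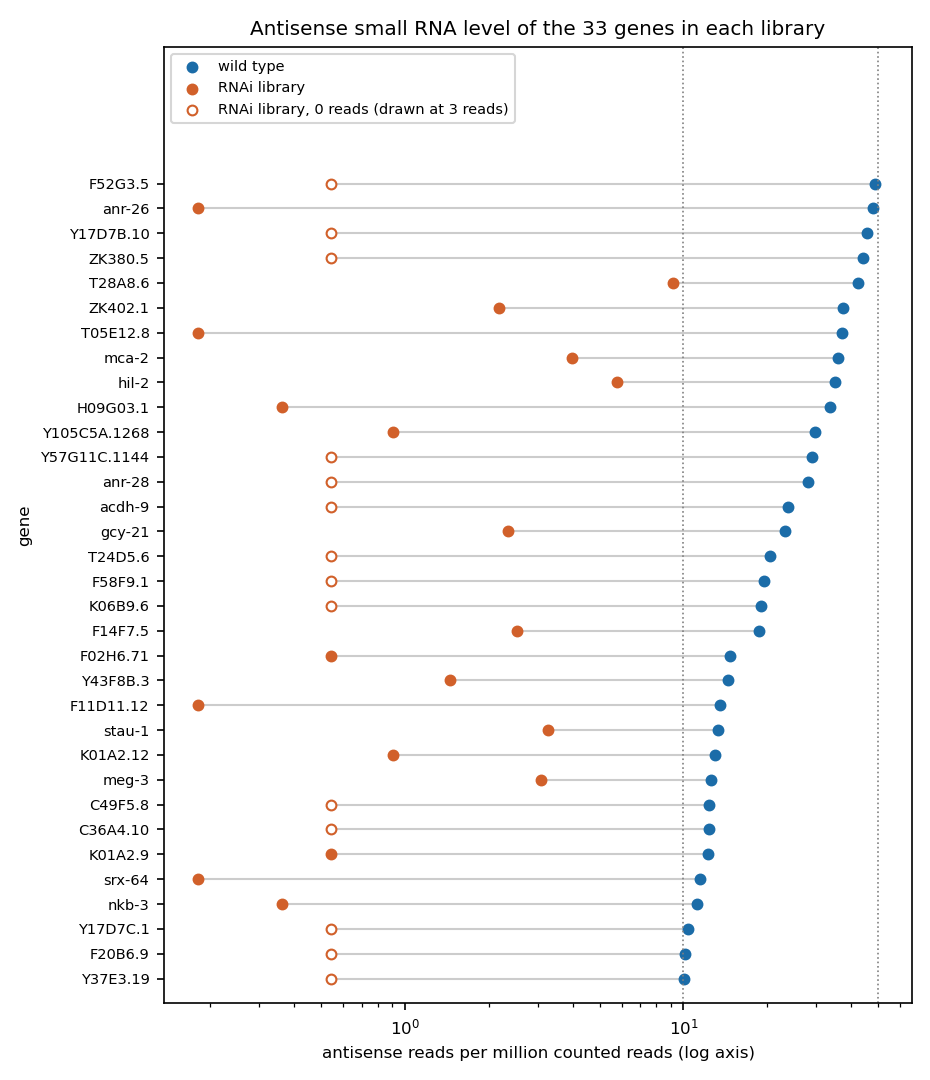
Antisense small RNA level of each of the 33 genes in the wild-type library (blue) and the RNAi library (orange), in RPM on a log axis, with dotted lines at 10 and 50 RPM. Open circles are the 14 genes with 0 RNAi reads, drawn at the limit of 3 reads (0.542 RPM), and T28A8.6 has the highest RNAi level at 9.21 RPM.

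**Figure D2:**
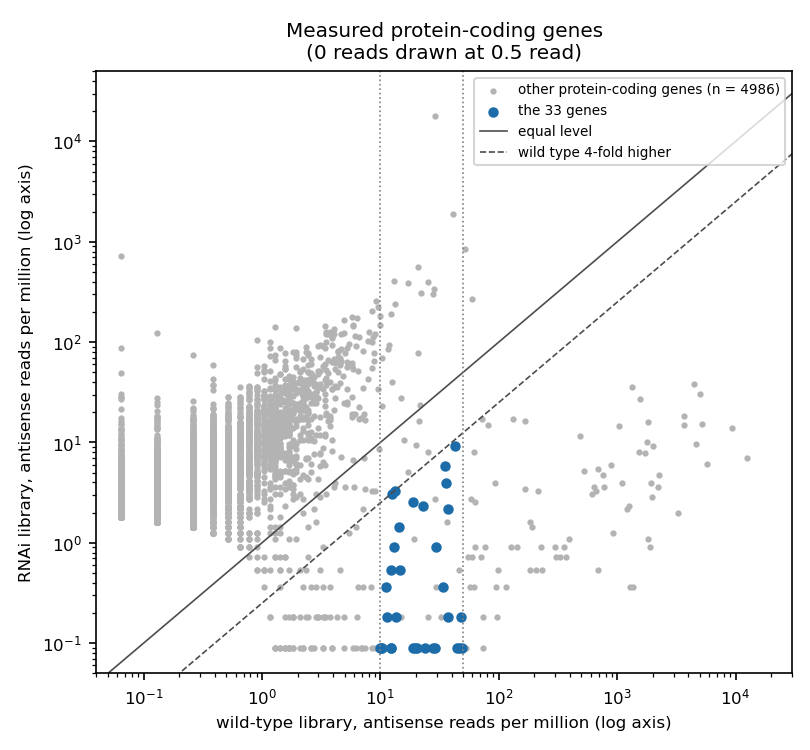
Antisense RPM in the wild-type (x axis) and RNAi library (y axis) of the 5019 measured protein-coding genes, both axes log, with the 33 genes in blue. The cloud of coding genes lies above the line of equal level (median log2 ratio 3.64), and the blue genes lie below the dashed 4-fold line between the dotted lines at 10 and 50 RPM, where the grey points are genes left out by name.

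The genes nearest to each limit of the rule were as follows. Y37E3.19 (77 reads, 10.01 RPM), F20B6.9 (78), Y17D7C.1 (80), nkb-3 (86) and srx-64 (88) were just above the lower level, and F39E9.6 (66 reads, 8.58 RPM), the lectin gene clec-166 (53) and F20B6.7 (49) just below it. F20B6.7, a pseudogene in the current annotation, overlaps the span of F20B6.9 by 470 bases on the same strand. Reads of F20B6.7 and F20B6.9 may be shared, so the count of each is uncertain. At the upper level F52G3.5 (48.6 RPM), anr-26 (48.0), Y17D7B.10 (45.8), ZK380.5 (44.1) and T28A8.6 (42.5) were inside, and WBGene00194661 (52.5), R01B10.2 (54.98) and Y46D2A.1 (56.9) outside. The ratio limit was met most narrowly by stau-1 (4.08-fold lower), meg-3 (4.107), T28A8.6 (4.62), hil-2 (6.05) and F14F7.5 (7.40). It was missed by F31E9.6 (3.42-fold), lrp-2 (2.13) and Y92H12A.5 (1.48).

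Antisense reads of 14 of the genes were not detected in the RNAi library. Positions here and below are those of the annotated gene in the build WBcel235, since the tables hold none. F52G3.5 (X:16973226-16976143), a coding gene with only a sequence name, had 374 reads in the wild type and 0 in the RNAi library, at least 89.7-fold lower against 3 reads. Y17D7B.10 (V:18783716-18784957) had 352 and 0 reads, at least 84.5-fold lower. ZK380.5 (X:1648068-1649217), which the current annotation calls a pseudogene, had 339 and 0 reads, at least 81.3-fold lower. These are among the highest wild-type levels of the 33. Further down were WBGene00219443, a gene of clone Y57G11C, with 223 and 0 reads, anr-28 with 216 and 0, T24D5.6 with 157 and 0, F58F9.1 with 150 and 0, and K06B9.6 with 146 and 0. The rest were acdh-9 with 183 wild-type reads, C36A4.10 and C49F5.8 with 95 each, Y17D7C.1 with 80, F20B6.9 with 78 and Y37E3.19 with 77. Over the 14 genes the bound on the fold ran from 18.5 to 89.7, and it follows the wild-type count, so it does not order the genes by how far they were lower. Of the 5019 measured coding genes 52 (1.04%) were at 0 in the RNAi library.

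In 8 genes 1 to 3 reads were counted in the RNAi library. anr-26 had 369 and 1 reads, 266-fold lower (47.4 to 10519). T05E12.8 (V:17069139-17069921) had 286 and 1, 206-fold lower (36.7 to 8159). H09G03.1 (III:3226514-3228057), now annotated as a long intergenic RNA, had 258 and 2, 92.9-fold lower (25.4 to 771). Intervals this wide show that a single read sets the ratio. F11D11.12 had 104 and 1 reads and srx-64 had 88 and 1. F02H6.71, the 1 gene without a match in the annotation used, had 113 and 3 reads and K01A2.9 had 94 and 3. The gene nkb-3 had 86 and 2. Ratios in these 8 genes ran from 22.6-fold to 266-fold lower.

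The other 11 genes had more than 3 RNAi reads. T28A8.6 (III:13499199-13501510) had 327 wild-type reads (42.5 RPM) and 51 RNAi reads (9.21 RPM), 4.62-fold lower (3.43 to 6.33). ZK402.1 (X:1404271-1404997) had 289 and 12 reads, 17.3-fold lower (9.77 to 33.9). WBGene00185102 of clone Y105C5A (IV:15646031-15646468) had 229 and 5 reads, 33.0-fold lower (13.9 to 102.5). Only T28A8.6 of these approached the lower level limit in the RNAi library. F14F7.5 had 144 and 14 reads and K01A2.12 had 100 and 5.

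Of the 8 genes with a gene name other than anr, 5 had more than 3 antisense reads in the RNAi library. mca-2 (IV:2084034-2091919), which encodes a plasma membrane calcium pump, had 277 and 22 antisense reads, 9.06-fold lower (5.87 to 14.7). hil-2 (IV:6294240-6295217), a linker histone gene, had 269 and 32, 6.05-fold lower (4.18 to 9.03). gcy-21 (II:2659664-2664686), a receptor guanylate cyclase gene, had 178 and 13, 9.86-fold lower (5.62 to 18.9). All 3 lay between 20 and 50 RPM in the wild type and between 2 and 6 RPM in the RNAi library. stau-1 (X:1027668-1035286), the gene of the double-stranded RNA binding protein Staufen, had 102 and 18 reads, 4.08-fold lower (2.46 to 7.16). meg-3 (X:1986469-1989607), whose product helps assemble the germ granules of embryos, had 97 and 17, 4.107-fold lower (2.44 to 7.34). Their intervals overlap almost completely. Exceptions were acdh-9 (II:846864-848603), an acyl-CoA dehydrogenase gene, with 183 and 0 reads, at least 43.9-fold lower, and nkb-3 (X:13765359-13770558), a beta subunit gene of the sodium-potassium pump, with 86 and 2, 31.0-fold lower (8.31 to 260). srx-64 (V:3929399-3930678), a chemoreceptor gene, had 88 and 1, 63.3-fold lower (11.08 to 2530).

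Sense reads entered the rule only through the read total. Of the reads on the 33 genes 6086 of 6421 (94.8%) were antisense in the wild-type library and 211 of 670 (31.5%) in the RNAi library. The rule chose genes by these antisense reads, so nothing is read from the shares. The genes' sense reads numbered 335 and 459, a ratio of RNAi over wild type of 1.90 (1.65 to 2.20), beside 2.42 for the sense reads of all coding genes. The direction of the sense ratio depends on the scaling, since it was 0.207 under TMM and 0.206 under median of ratios. Without hil-2, which held 166 of the 335 wild-type sense reads, the sense ratio in RPM was 2.42.

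No sense read was found in the wild-type library on 16 of the 33 genes, and none in either library on 13. The share of 48.5% without a wild-type sense read was close to the 49.0% of all coding genes, and it was 10.8% over the 5019 measured ones. In the wild type 7 genes had 10 or more sense reads. hil-2 had 166 sense reads in the wild type and 165 in the RNAi library, Y43F8B.3 had 36 and 56, and mca-2 had 25 and 50. gcy-21 had 24 and 14, stau-1 had 22 and 65, meg-3 had 16 and 11, and acdh-9 had 10 and 47. All but Y43F8B.3 have gene names. For these 7 genes the antisense sums were 1217 and 110, 7.96-fold lower (6.55 to 9.77). The other 26 had 4869 and 101, 34.7-fold lower (28.5 to 42.7), with 36 and 51 sense reads. T28A8.6 alone held 51 of these 101 RNAi antisense reads, and hil-2 held 32 of the 110 of the first group. The intervals of these sums do not cover such differences between genes. Of the 8 genes under 10-fold lower, 6 were in the group with 10 or more sense reads, and the remaining T28A8.6 and F14F7.5 had 2 and 0 wild-type sense reads. Since the split by sense reads was made after the values were seen, it is a description.

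Over both libraries 10 of the genes had 10 or more sense reads. Of these, stau-1, with a sense ratio of 4.10 (2.50 to 6.99), acdh-9, with 6.53 (3.26 to 14.5), and T28A8.6, with 2 and 8 reads, were at least 4-fold higher in the RNAi library in RPM. That is a count of 3 of 10, beside 28.1% of the 6823 coding genes with as many sense reads. None was at least 4-fold lower, beside 0.41% of those genes. Under TMM 0 of the 10 were higher and 5 lower, beside 0.909% and 35.6% of those genes. The median sense ratio was 2.47, close to 2.78 over all these coding genes.

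Most of the 33 genes were short. The longest annotated transcript was known for 32 and had a median of 697 bases (279 to 4977) and 4 exons (2 to 22), against 1159 bases and 5 exons over the 20231 matched coding genes. It was under 1 kb in 19 genes, a count not made over all coding genes. The median was 952 bases over the 59 matched genes at 50 RPM or more with the same ratio. Over the 13 genes left out by name it was 1093 bases. Per kb of transcript the wild-type antisense level had a median of 22.0 RPM per kb. ZK380.5, with 279 bases, reached 158 RPM per kb, followed by Y17D7B.10 with 132, anr-26 with 125, WBGene00185102 with 88.3 and H09G03.1 with 69.0. The lowest densities were 2.899 RPM per kb in Y43F8B.3, 4.54 in meg-3, 4.93 in stau-1, 6.48 in gcy-21 and 6.501 in F14F7.5. Because the rule keeps levels within a 5-fold range, low density goes with long transcripts by construction, and the slope in the plot of density against length is set by the choice. The genes with 10 or more sense reads had transcripts of 756 to 4977 bases with a median of 2775, and the others 279 to 2879 with a median of 579. Reads may fall on one stretch of a long transcript, which counts per transcript cannot show.

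**Figure D3:**
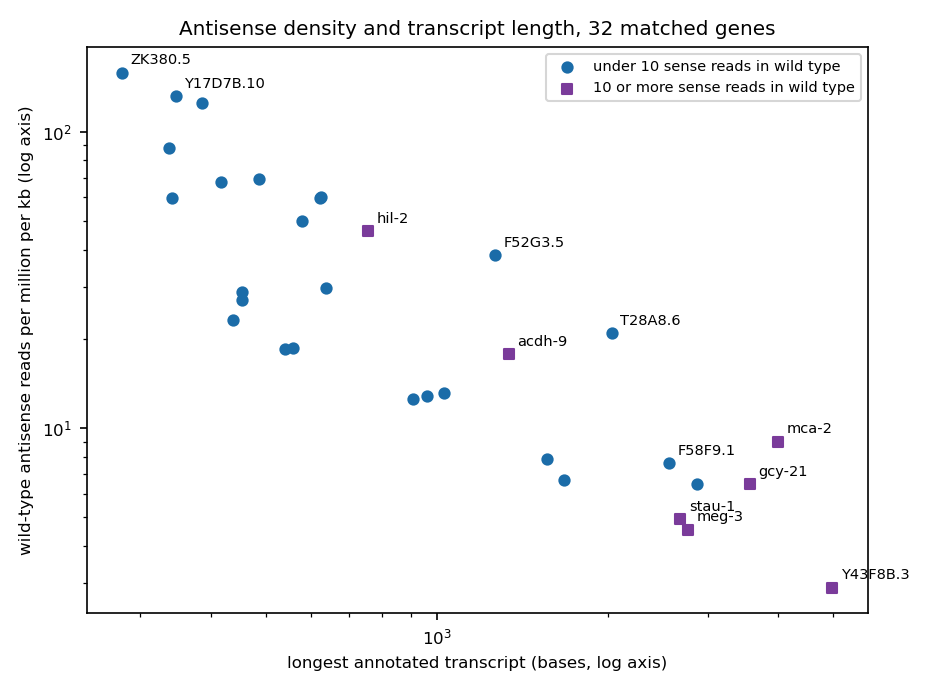
Wild-type antisense RPM per kb (y axis, log) against the longest annotated transcript in bases (x axis, log) of the 32 matched genes; squares are genes with 10 or more wild-type sense reads. Density runs from 158 RPM per kb in ZK380.5 to 2.899 in Y43F8B.3, and its slope follows from the level range of the rule.

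Not all of these genes are coding in the current annotation. Of the 32 matched genes 28 were still protein-coding, 1 a pseudogene (ZK380.5), 1 a long intergenic RNA (H09G03.1) and 2 antisense RNAs (anr-26 and anr-28). The share of 87.5% compares with 96.8% of all matched coding genes and 81.4% of 59 matched genes that met the same ratio at 50 RPM or more. anr-26 (III:2439940-2440819) and anr-28 (III:2439873-2440783) lie on the same strand and share 844 bases, and K01A2.9 (II:315890-316907) and K01A2.12 (II:317648-318665) lie in tandem on the same strand, have transcripts of 453 bases each and share a gene name in the annotation. Bowtie2 at default settings reports 1 place for a read that matches several, so the 369 and 216 wild-type reads of the first pair, and the 94 and 100 of the second, are uncertain for each gene. Without these 4 genes the summed fold was 18.9.

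Where the files list several transcripts, the antisense reads were spread over them. hil-2 had 113 wild-type antisense reads on its transcript a and 156 on b, but 148 and 18 sense reads. The 8 transcripts of Y43F8B.3 had 9 to 17 each, those of meg-3 had 47 and 50, those of nkb-3 had 39 and 47, and those of F14F7.5 had 55 and 89. Shared exons make such splits partly arbitrary. Noncoding transcripts of 2 genes were listed under another class and not counted: F58F9.1b had 103 wild-type reads beside 150 on the coding transcript, and Y17D7C.1b had 314 beside 80. With noncoding transcripts added, Y17D7C.1 would pass the upper level limit.

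The genes lay on all 6 chromosomes. Chromosome X held 9 of the 32 matched genes, beside 13.6% of all matched coding genes. Chromosomes III, IV and V held 6 each, beside 13.2%, 16.4% and 25.3%. Chromosome II held 4, beside 17.4%, and chromosome I held 1, beside 14.2%. No test of these counts was made. Overlap with a gene on the opposite strand was found for 5 of the 32 genes. Y37E3.19 (I:2107402-2108902) lies wholly within the span of the nucleoporin gene npp-13 on the other strand, so its 77 antisense reads run along the strand of npp-13, which had 27 sense reads. In Y43F8B.3, the longest member, 4 genes lie on the other strand, and in mca-2, Y17D7B.10 and C49F5.8 the overlap was 53, 4 and 88 bases. Without these 5 genes the summed fold was 20.6.

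Many of the genes lay close to another gene of the same behaviour. Here a strongly targeted gene is one of any class with 10 or more wild-type antisense RPM and at least 4 times the RNAi level. Within 10 kb of the span, 12 of 32 genes (37.5%) had another such gene, beside 525 of 20231 coding genes (2.60%) and 37 of 59 matched genes (62.7%) at 50 RPM or more with the same ratio. The neighbour exceeded 50 RPM in 9 of the 12. No test of this difference was made. In the remaining cases the neighbour was C36A4.11 for C36A4.10, at 9.1 kb, and the partner of the overlapping anr pair. F11D11.12 counted only through F11D11.21, which overlaps it. Reads of this pair and of the anr pair may be shared, and the count was not made without them.

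In several of these neighbourhoods the other gene had more wild-type reads than the member. meg-3 lay 1.64 kb from F52D2.8, with 5309 wild-type reads, 5.53 kb from F52D2.12, with 9245, and 6.14 kb from anr-24, with 13786, all on the other strand. K01A2.9 and K01A2.12 lay within 6 kb of K01A2.4, with 4864 reads, and of the potassium channel accessory gene mps-2, with 5131. Upstream of ZK402.1 on the same strand lay ZK402.2 at 0.15 kb, with 473 reads, and ZK402.3 at 1.26 kb, with 1426. ZK402.1 itself had 289 reads and meg-3 had 97. Y17D7B.10 lay 7.03 kb from Y17D7B.4, with 9907 and 2 reads, T05E12.8 lay 3.02 kb from the noncoding RNA T05E12.10, with 2223 and 30, and Y17D7C.1 lay 1.26 kb from Y17D7C.6, with 899 and 0. F11D11.12 holds F11D11.21 within its span on the same strand, with 758 and 3 reads beside its own 104 and 1, so reads of the shared 258 bases could be counted on either. WBGene00219443 lay 0.19 kb from linc-121, with 382 reads on the other strand. Y43F8B.3 had none within 10 kb but 7 within 50 kb, all on its strand, among them Y43F8B.17 with 4718 reads.

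**Figure D4:**
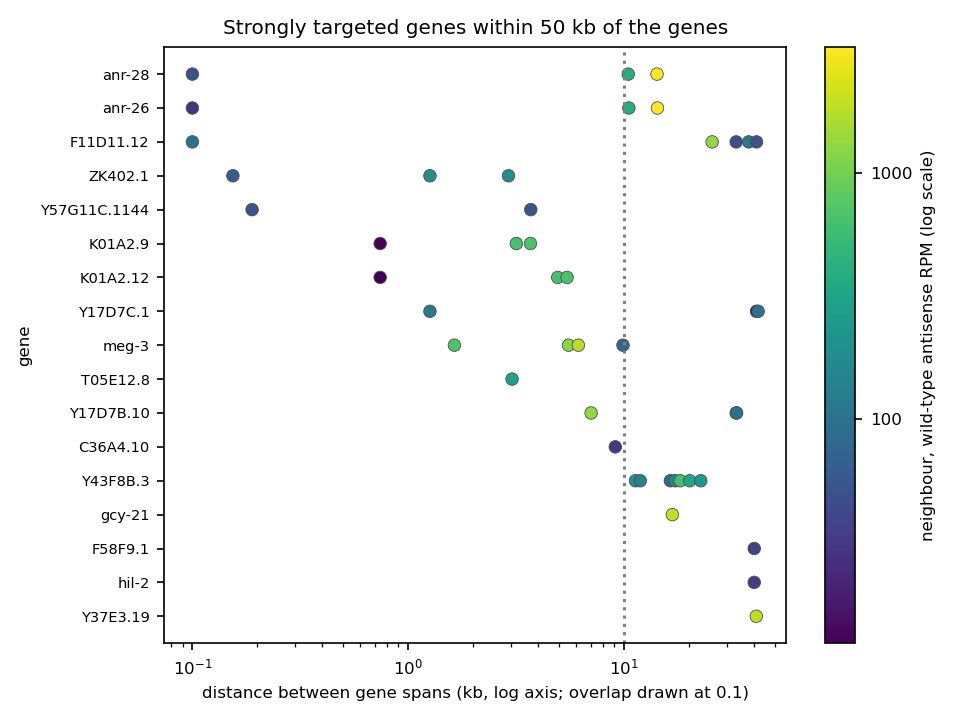
Distance in kb (log axis, overlapping genes drawn at 0.1) from each of 17 genes (rows) to the strongly targeted genes within 50 kb, coloured by the neighbour's wild-type antisense RPM. The dotted line marks 10 kb, within which 12 genes have a strongly targeted neighbour.

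Of 62 different coding genes next to the 32 matched genes without overlap, 7 (11.3%) were strongly targeted, beside 121 of the 20231 matched coding genes (0.598%). Among the 7 were K01A2.9 and K01A2.12, which are members themselves and adjacent to each other. Their reads are uncertain for each gene, so the share is partly set by the choice of members. No wild-type antisense read was found on 38 of the 62 (61.3%), beside 68.9% of the matched coding genes. Of the other 55, 51 had under 1 wild-type RPM, as had 95.5% of the matched coding genes, and the highest was K01A2.3 with 22 reads (2.86 RPM), next to K01A2.9. The others above 1 RPM were F14F7.7 with 13 reads, the kinase gene hpk-1 with 10 and R09A8.1 with 9. In all, 25 of the 32 genes had no strongly targeted adjacent coding gene, and the median of the 55 was 0 RPM, as it was over all coding genes. srx-64 lies between srx-65 and srx-63, its family members, and hil-2 between srv-24 and srv-27, and all 4 had 0 wild-type antisense reads.

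**Figure D5:**
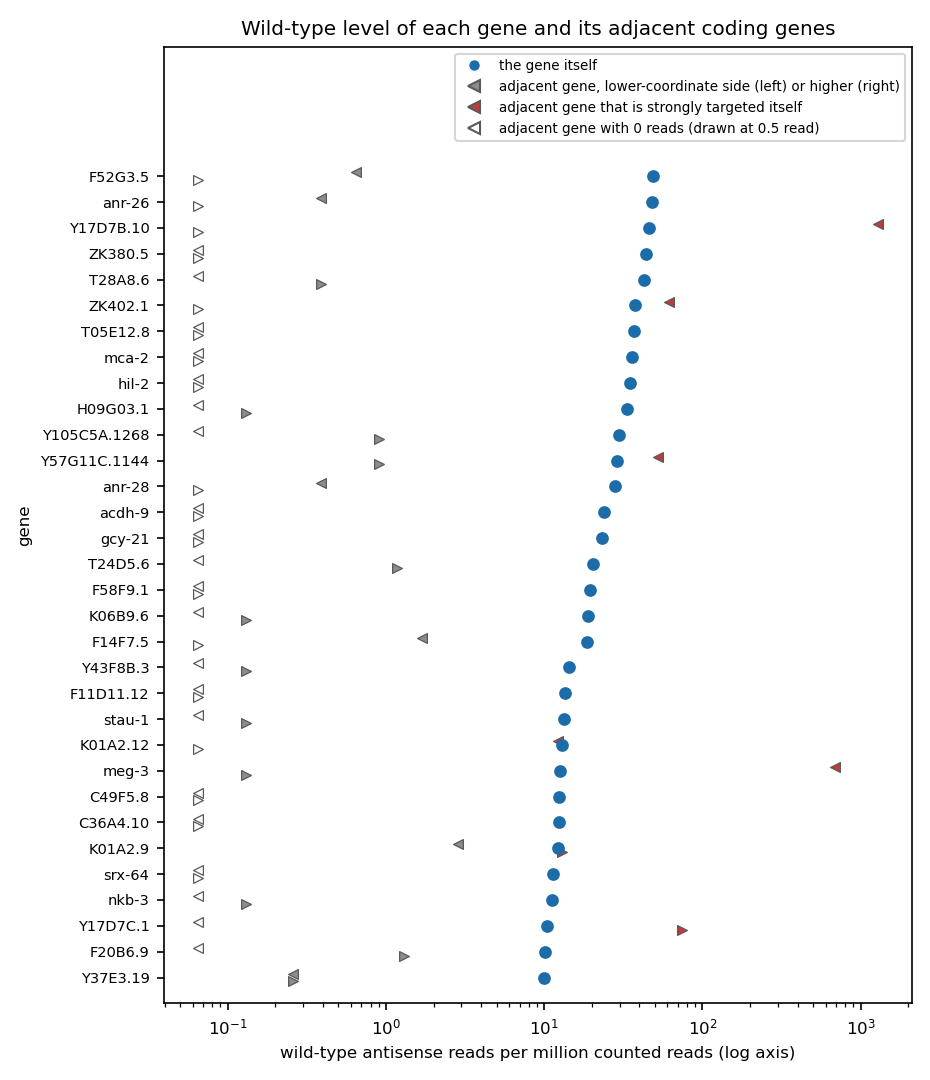
Wild-type antisense RPM (log axis) of each matched gene (circle) and of the nearest non-overlapping coding gene on its lower-coordinate (left triangle) and higher-coordinate side (right triangle). Red triangles are the adjacent genes that were strongly targeted, and open triangles are genes with 0 reads, drawn at 0.5 read.

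Most genes that share a name stem with a member had few or no antisense reads in the wild type, as had most coding genes. Of the 20231 matched coding genes 68.9% had 0 wild-type antisense reads and 95.5% had under 1 RPM. Of the other 100 srx chemoreceptor genes 98 had 0 such reads and the highest had 1. srx-64 was the 1 strongly targeted gene among 1277 chemoreceptor genes of all families, beside 0.598% of the matched coding genes. Of 30 other gcy genes 23 had 0 reads, and the highest was gcy-15 with 23 and 1 reads, 2.99 RPM in the wild type. Among 12 other acdh genes the highest was acdh-13 with 2 reads. No gene named clec, nhr, pals, ugt, cyp or skr was a member. These families make up 1.17%, 1.31%, 0.180%, 0.326%, 0.360% and 0.0974% of coding genes, too little for a count of 0 among 33 genes to say anything.

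In the meg, mca, nkb and hil stems the other gene with most wild-type reads had fewer of them than the member. Its RPM was higher in the RNAi library than in the wild type. The same holds for the median measured coding gene, with a log2 ratio of 3.64, so nothing is read from this direction. meg-4 had 4 and 15 antisense reads beside the 97 and 17 of meg-3, mca-3 had 3 and 54 beside the 277 and 22 of mca-2, and nkb-1 had 1 and 16 beside the 86 and 2 of nkb-3. hil-3 had 16 and 97 beside the 269 and 32 of hil-2. Under TMM mca-3 and nkb-1 were still higher in the RNAi library, with ratios of 2.72 and 2.42, while meg-4 and hil-3 were lower, with 0.566 and 0.916. Of 57 genes with anr names, 39 of the 55 that are not members had 0 wild-type antisense reads, beside 68.9% of the matched coding genes. Another 1, anr-24, was strongly targeted, with 13786 and 56 reads.

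The 33 genes were set beside the 61 coding genes at 50 RPM or more with the same ratio, with no test. Of the 61, 5 (8.20%) had no wild-type sense read, against 16 of 33 (48.5%) and 49.0% of all coding genes. Their antisense sums of 500448 and 2199 reads were 164-fold lower (157 to 171) in the RNAi library. The members' sums of 6086 and 211 reads were 20.8-fold lower. Why the summed folds differ was not tested. For single genes higher counts allow larger ratios to be measured, and 2 of the 61 had 0 RNAi reads against 14 of the 33. At the members' level but under a 4-fold ratio were 21 other coding genes, with a median log2 ratio of 2.98.

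The genes of the pathway itself were not among the members. The 3 lists below hold too few genes for this absence to say anything. Of 4 nuclear RNAi genes, nrde-1 to nrde-4, all were measured, 2 were higher in the RNAi library by 4-fold or more, at 10 RPM or more and with the interval beyond 2-fold, and 0 were lower. One was nrde-2, which acts in the nucleus with NRDE-3, with 10 and 146 antisense reads, and the other nrde-3, with 319 and 10360. Both groups carried a tagged nrde-3, and nrde-3 had 45147 and 46985 sense reads. Its reads may therefore come from the tagged copy, which was not tested. Of 13 ERI and ERGO-1 pathway genes 12 were measured, 3 higher and 1 lower. The lower one, eri-12, had 2343 and 4 reads, 422-fold lower (164 to 1549), above the members' level. ergo-1 had 8 and 45 reads and eri-1 had 2 and 10. Of 16 matched siRNA amplification genes 12 were measured, with 4 higher and 0 lower. Over all measured coding genes 18.4% were higher and 2.47% lower by the same limits. The higher calls depend on the scaling. Under TMM 48 of the 5019 genes (0.956%) were higher, with 1 of the nuclear RNAi genes, nrde-3, and 0 of the other lists. Under TMM 2 ERI and ERGO-1 pathway genes were lower. Over reads outside structural RNA 4300 (85.7%) were higher, with 4, 9 and 11 genes of the 3 lists. This scaling moved log2 ratios by only 0.38, and its smaller read totals let more genes reach the limit of 10 RPM. The median log2 ratios of the 3 lists were 4.59, 3.40 and 3.52, beside 3.64 for all measured coding genes.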

How the data were processed

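The authors deposited raw counts of small RNA reads per transcript, sense and antisense, for 2 libraries, 1 per group. Alignment was by Bowtie2 (version not given in the sources used here) with default settings against the WS243 transcripts, per the labels' design text. Columns were taken by position, since headers have 5 names above lines of 6 fields, and 99.9% and 99.5% of microRNA reads were in the sense column. Incomplete lines (2 and 3, holding 2 and 9 reads) were left out. Genes were matched by identifier to the Ensembl 115 annotation of WBcel235; the tables hold no coordinates. RPM is over all sense and antisense reads. Structural RNA means the classes rRNA, tRNA, miRNA, snRNA and snoRNA. Ratio intervals are exact 95% intervals of the binomial split (Clopper-Pearson) and, like the floor of 3 reads, cover counting error only, since reads are not independent molecules. Ratio code was tested on simulated data. Every member could be named; other genes were named as limits, neighbours, relatives or pathway lists. Members and lists were chosen with earlier results of these data known; name stems and the split by sense reads were added after values were seen. Protein and promoter sequences were not used here. Python 3.11.15, scipy 1.17.1, edgeR 4.0.16 and DESeq2 1.42.0 (scaling only) were used.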

Additional observations from a re-analysis of the deposited data

How the results depend on the processing

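Every member stayed lower in the RNAi library under each scaling and each added count tried. The 4-fold limit of the rule made this outcome all but certain, so nothing is read from it. The 33 genes became 16 with levels from 20 RPM, and 28 with a ratio of 8 or more. Another scaling shifts the levels that chose them: 44 genes met the rule under TMM and under median of ratios, of which 14 were shared, and 27 under RPM outside structural RNA, of which 2 were shared. These scalings moved log2 ratios by −3.20, −3.21 and 0.38. The median log2 ratio of −6.22 became −3.64 with 5 added to each count, −9.42 under TMM and −9.43 under median of ratios. The summed fold of 20.8 became 15.97 outside structural RNA, 191 under TMM and 192 under median of ratios. The following were chosen after seeing the data. The median log2 ratio of all measured coding genes, 3.64, became 0.44 under TMM and 0.43 under median of ratios. The sense ratio of 1.90 became 0.207 under TMM, 0.206 under median of ratios and 2.47 outside structural RNA. It became 2.42 without hil-2, and the wild-type antisense share of 94.8%, a planned setting, became 97.2% without it. Density had a median of 12.5 RPM per kb over gene spans. Within 5 kb 10 genes, and within 50 kb 17, had a strongly targeted neighbour. The comparison of related proteins and the setting without the largest protein family were not run, as protein sequences were not used here. No paired analysis was possible because each group has 1 library. In the RNAi library a count of 0 allows up to 0.542 RPM.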
